A study of Mus musculus with 4 samples.

Results

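The interferon-stimulated genes described here are a set of 36 mouse genes known from the literature to be induced by interferons, chosen by name and with earlier results of these data known. A gene counted as measured where at least 1 array probe set carried its symbol, and no other gene's, in the platform annotation; of several such probe sets the brightest was used. By that rule 32 of the 36 genes were measured, out of 19751 genes measured in all. Isg15, Gbp2 and Igtp lay on probe sets that the annotation gives to more than 1 gene, and Ifi44 is not in the annotation used here; their probe sets are described separately below.

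The study compared mouse embryonic fibroblasts that lack podoplanin, a small transmembrane mucin-type glycoprotein encoded by Pdpn, with wild-type ones, on 1-colour arrays of total RNA. The 2 groups were Pdpn KO fibroblasts (genotype Pdpn-/-, 2 arrays) and WT fibroblasts (2 arrays). All 4 samples carry the strain label C57BL6/J and the sex label female, came from embryos between days 9.5 and 13.5 of gestation, and were grown for 7 to 10 days in αMEM with 10% fetal calf serum. CD31-positive endothelial and CD45-positive blood cells were then removed magnetically; the labels name no interferon, virus or other treatment. The labels call the arrays biological replicates, but the sources used here give neither the number of embryos or litters behind each culture nor the stage of each embryo nor the construction of the null allele. The p-values therefore measure the spread between these samples, part of which may be technical, and each comparison rests on 2 arrays against 2.

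Type I and type III interferons are secreted by cells that sense viral nucleic acid, and they act through cell-surface receptors and JAK kinases on a transcription factor complex called ISGF3, which contains STAT2 and IRF9. ISGF3 binds the interferon-stimulated response element in the promoters of many antiviral genes, while interferon gamma acts through the gamma-activated sequence. Fibroblasts make interferon beta after infection and hold many of these genes at a basal level without it.

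The promoters of 4 of the genes show matches to the elements named above, which were found for part of the set. They are given 5′ to 3′ on the strand of the gene as the 250 bases before the annotated start, from RefSeq on build GRCm38.p6. Ifit3 (chr19:34583279-34583528, plus strand) and Ifit1 (chr19:34640639-34640888, plus strand) lie in the same gene cluster and their levels differed in how they moved between arrays, Irgm1 (chr11:48871421-48871670, minus strand) varied between arrays in the same manner as Ifit3, and Irf1 (chr11:53769764-53770013, plus strand) carries the gamma-activated sequence instead. Capitals mark the core of the interferon-stimulated response element, GAAA and GAAA parted by any 2 bases, on either strand in the Ifit3, Ifit1 and Irgm1 promoters, and TTCNNNGAA, the core of the gamma-activated sequence, in that of Irf1.
Ifit3: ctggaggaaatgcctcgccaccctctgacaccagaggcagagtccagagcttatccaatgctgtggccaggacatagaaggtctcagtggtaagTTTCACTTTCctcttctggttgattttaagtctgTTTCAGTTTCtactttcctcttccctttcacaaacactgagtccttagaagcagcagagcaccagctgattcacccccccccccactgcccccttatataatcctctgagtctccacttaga
Ifit1: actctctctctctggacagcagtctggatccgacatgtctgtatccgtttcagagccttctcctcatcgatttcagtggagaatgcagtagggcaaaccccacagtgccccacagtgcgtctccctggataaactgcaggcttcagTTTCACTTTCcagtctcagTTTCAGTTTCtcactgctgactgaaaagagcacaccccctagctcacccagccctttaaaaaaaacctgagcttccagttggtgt
Irgm1: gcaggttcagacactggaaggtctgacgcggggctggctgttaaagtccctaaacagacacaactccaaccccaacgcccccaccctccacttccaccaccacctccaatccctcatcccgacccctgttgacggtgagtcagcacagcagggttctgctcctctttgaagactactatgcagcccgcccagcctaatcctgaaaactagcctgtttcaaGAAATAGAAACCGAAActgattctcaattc
Irf1: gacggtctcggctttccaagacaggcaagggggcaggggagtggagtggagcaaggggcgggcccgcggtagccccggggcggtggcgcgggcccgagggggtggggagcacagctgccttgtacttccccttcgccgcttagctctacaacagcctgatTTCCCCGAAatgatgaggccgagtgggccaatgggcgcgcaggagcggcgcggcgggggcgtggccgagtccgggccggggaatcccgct
The matches in Ifit3 began 156 and 122 bases before the start, and those in Ifit1 104 and 85 bases before it. The 2 matches in Irgm1 overlapped and began 30 and 24 bases before the start. The match in Irf1 began 90 bases before it.

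RefSeq windows of 300 bases, 250 before and 50 after the start, were given for 27 of the 36 genes. The response element core, searched on both strands with overlapping matches allowed, was found for 16 of these 27 genes (59.3%), against 3.99% of the 27025 symbols with a window in the same table. The gamma-activated core TTCNNNGAA was found for 7 of the 27 (25.9%), against 9.55% of the symbols, and 4 of the 27 had both motifs. A match describes the letters of the window and does not show that a factor binds there. The 13 measured genes with a response element match had a median log2 fold change between Pdpn KO and WT of 0.05 (range -0.09 to 0.50), and the 10 measured genes with a window but no match had a median of 0.13 (range -0.15 to 0.21).

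The arrays were checked against their labels first. Pdpn itself had an intensity of 179 and 201 on the Pdpn KO arrays, against 4486 and 3106 on the WT arrays, a log2 fold change of -4.30 ± 0.19 (SE; limma adjusted p = 0.00501). The median intensity of all probe sets lay between 283 and 290 on the 4 arrays. The sex-linked genes did not match the label female on 3 of them. Eif2s3y, a gene of the Y chromosome, had an intensity of 1673 on Pdpn KO replicate 1 and 35.1 on Pdpn KO replicate 2, against 1534 and 1474 on the WT arrays. Xist, transcribed from the inactive X chromosome, had 48.8 and 1831 on the Pdpn KO arrays, against 48.6 and 57.4 on the WT arrays. Pdpn KO replicate 2 thus stood apart from the other 3 arrays, and results are also given without it. Of 14 fibroblast markers, Vim, an intermediate filament gene of mesenchymal cells, read 17537 and 17684 in Pdpn KO against 17995 and 18278 in WT, while Lum, a matrix proteoglycan gene, read 69.1 and 122 against 47.6 and 69.4. Intensities of the 14 thus spanned 47.6 to 18278. Pecam1, which encodes the CD31 used for depletion, read 124 and 141 in Pdpn KO against 121 and 154 in WT, and Ptprc, which encodes CD45, read 86.5 and 94.9 against 90.0 and 80.6. RMA gives no detection calls and every probe set has its own background, so values in this range cannot say whether a transcript was present.

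No interferon-stimulated gene passed the test between the genotypes. At a limma adjusted p under 0.05, 0 of the 32 genes were called, against 0.0101% of all genes, which is 2 genes, Pdpn and Decr1, both lower in Pdpn KO. At an unadjusted p under 0.05 the count was again 0 of 32, against 2.01% of all genes. The median log2 fold change of the 32 genes was 0.05, beside 0.00 over all genes, and the individual values ran from -0.15 for Cmpk2 to 0.50 for Ifit3. Of the 32 values, 18 were positive and 14 negative. The values thus fell on both sides of 0. In each sentence below a fold change is the mean log2 intensity of the 2 Pdpn KO arrays minus that of the 2 WT arrays, with its standard error from the limma fit, and the adjusted p of each of the 32 genes was 1.00.

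The intervals bound differences in probe set signal on these arrays. Fold changes of dim genes are understated, so for such genes the intervals do not bound the change in transcript. Of the 32 genes, 9 were among the brighter 50% of all genes. The 95% interval of the log2 fold change included 0 for all 32 genes, lay within a 2-fold change in either direction for 31 of them and within 1.5-fold for 26. The exception at 2-fold was Ifit3. Standard errors ran from 0.11 to 0.29 with a median of 0.13, beside a median of 0.127 over all genes. An exact permutation test of a single gene with 2 arrays against 2 cannot give a two-sided p below 0.333.

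**Figure D1:**
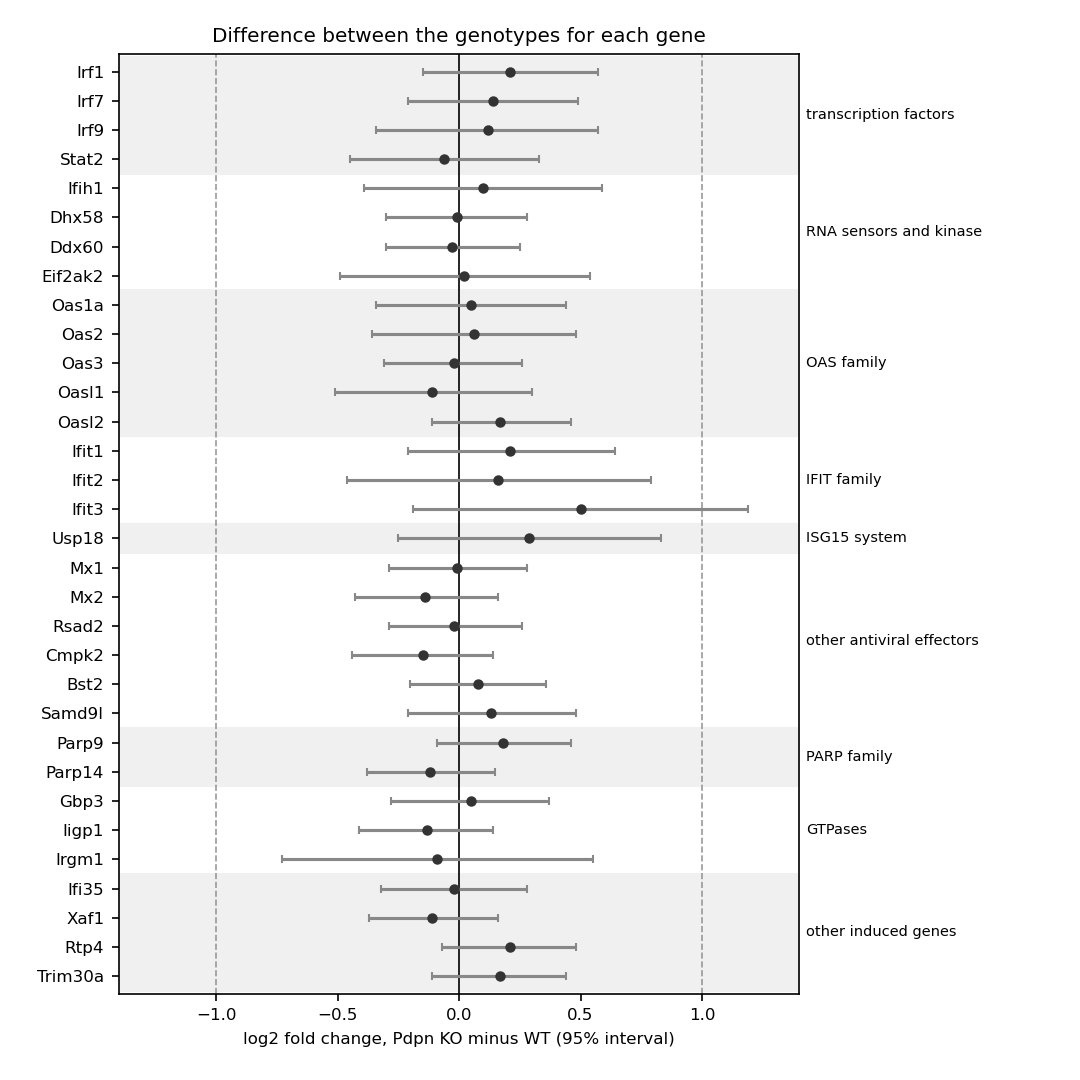
Log2 fold change of each of the 32 interferon-stimulated genes, Pdpn KO minus WT, with points for the estimate and bars for the 95% interval of the limma fit on 2 arrays per genotype; dashed lines mark a 2-fold change. Every bar crosses 0, and that of Ifit3, at 0.50, is the one that passes a dashed line.

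Among the 32 genes, 4 (12.5%) had both Pdpn KO values higher than both WT values, against 14.6% of all genes, and 4 (12.5%) had both lower, against 9.74% of all genes. The 4 genes above were Oasl2, Parp9, Rtp4 and Trim30a, and the 4 below were Cmpk2, Parp14, Iigp1 and Xaf1. In the other 24 genes the genotypes overlapped.

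Among the transcription factors, Irf7, which amplifies type I interferon production, had an intensity of 238 and 192 in Pdpn KO against 183 and 206 in WT (log2 fold change 0.14 ± 0.15). Irf9, the DNA-binding subunit of ISGF3, had 513 and 358 in Pdpn KO against 419 and 372 in WT (0.12 ± 0.19). Stat2, its partner that carries the transactivation domain, had 542 and 408 in Pdpn KO against 516 and 468 in WT (-0.06 ± 0.16). For Irf9 and Stat2 the Pdpn KO pair enclosed the WT pair, and for Irf7 the highest value was Pdpn KO replicate 1. Irf1, an early target of interferon gamma, had 362 and 440 in Pdpn KO against 318 and 375 in WT (0.21 ± 0.15), while its dimmer probe set read 167 and 187 against 200 and 201 (-0.18 ± 0.12). The probe sets of Irf1 therefore disagreed in sign.

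The cytosolic sensors and the RNA-dependent kinase differed by less than their standard errors. Ifih1, which encodes the long double-stranded RNA sensor MDA5, had 224 and 190 in Pdpn KO against 234 and 159 in WT (0.10 ± 0.20). Eif2ak2 encodes PKR, the kinase that stops translation on binding double-stranded RNA. It had 919 and 624 in Pdpn KO against 841 and 659 in WT (0.02 ± 0.21). Its array-to-array range within each genotype was far wider than its difference between them. Dhx58, encoding the MDA5 cofactor LGP2, and Ddx60, a helicase gene, had log2 fold changes of -0.01 ± 0.12 and -0.03 ± 0.11.

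The OAS enzymes make 2′,5′-linked oligoadenylates that activate RNase L. Oas1a had 175 and 191 in Pdpn KO against 153 and 204 in WT (0.05 ± 0.16). Oas2 had 167 and 187 in Pdpn KO against 144 and 199 in WT (0.06 ± 0.18), and Oas3 had a log2 fold change of -0.02 ± 0.12. In both Oas1a and Oas2 the WT pair enclosed the Pdpn KO pair. A dimmer probe set shared by Oas1a and Oas1g read 108 and 138 in Pdpn KO against 120 and 140 in WT (-0.10 ± 0.16), with the opposite sign. Of the OAS-like genes, Oasl1, which in the mouse restrains translation of Irf7 mRNA, had 286 and 353 in Pdpn KO against 303 and 386 in WT (-0.11 ± 0.17). Oasl2 had 170 and 158 in Pdpn KO against 138 and 152 in WT (0.17 ± 0.12), with the pairs separated.

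The IFIT proteins bind foreign RNA ends and block translation, and Ifit2 and Ifit3 had, with Irgm1, the widest intervals of the set. Ifit1 had 93.3 and 87.2 in Pdpn KO against 65.7 and 92.0 in WT (0.21 ± 0.18). Ifit2 had 353 and 312 in Pdpn KO against 393 and 223 in WT (0.16 ± 0.26). Ifit3 had 167 and 110 in Pdpn KO against 124 and 74.5 in WT (0.50 ± 0.29, 95% interval -0.19 to 1.19). In linear terms the Ifit3 estimate was a 1.41-fold difference, the largest of the set, but Pdpn KO replicate 2 lay below WT replicate 1. Ifit3 was among the dimmest 25% of genes, and its log2 fold change was 0.34 with a pseudocount of 50. Its value changed with the array left out. It was 0.20 without Pdpn KO replicate 1, 0.79 without Pdpn KO replicate 2, 0.86 without WT replicate 1 and 0.13 without WT replicate 2. Replicate 2 was below replicate 1 in both genotypes, so leaving out 1 array adds part of that shift to the fold change. Between same-numbered arrays Pdpn KO minus WT was 0.43 for replicate 1 and 0.57 for replicate 2. Ifit3b, a close relative of Ifit3 that may share sequence with its probes, read 20.5 and 19.5 in Pdpn KO against 18.3 and 18.9 in WT.

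ISG15 is a ubiquitin-like protein that interferon-treated cells attach to other proteins, and Usp18 encodes the protease that removes it and also damps signalling at the type I receptor. Usp18 had 282 and 198 in Pdpn KO against 164 and 228 in WT (0.29 ± 0.22), and the pairs overlapped. It too rested on single arrays, at 0.03 without Pdpn KO replicate 1, 0.54 without Pdpn KO replicate 2, 0.05 without WT replicate 1 and 0.52 without WT replicate 2. The probe set shared by Isg15 and Gm9706 read 121 and 130 in Pdpn KO against 123 and 150 in WT (-0.11 ± 0.14), and its signal cannot be divided between them.

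The other antiviral effectors differed little. Mx1, a dynamin-like GTPase gene that carries a disabling deletion in C57BL/6 and many other laboratory strains, had 40.4 and 45.3 in Pdpn KO against 42.4 and 43.5 in WT (-0.01 ± 0.12). Mx2, its relative, had 42.0 and 47.2 in Pdpn KO against 46.7 and 51.2 in WT (-0.14 ± 0.12). Rsad2, encoding viperin, had 104 and 106 in Pdpn KO against 101 and 112 in WT (-0.02 ± 0.11). Viperin turns CTP into a chain-terminating nucleotide, and Cmpk2, the gene beside Rsad2, encodes a mitochondrial nucleotide kinase. Cmpk2 had 62.7 and 70.4 in Pdpn KO against 71.3 and 76.1 in WT (-0.15 ± 0.12), the lowest log2 fold change of the set, with both Pdpn KO values below both WT values. Bst2, encoding the virion-retaining protein tetherin, had 452 and 465 in Pdpn KO against 411 and 457 in WT (0.08 ± 0.12). Samd9l had a log2 fold change of 0.13 ± 0.14, and the genotypes overlapped for both genes.

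Parp9 and Parp14 encode ADP-ribosyltransferase family proteins and gave opposite signs. Parp9 had 227 and 226 in Pdpn KO against 208 and 192 in WT (0.18 ± 0.11), with both Pdpn KO values above both WT values. Parp14 had 130 and 132 in Pdpn KO against 138 and 146 in WT (-0.12 ± 0.11), with both below. Neither difference passed the test.

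The interferon-inducible GTPases act on membranes around intracellular pathogens. Irgm1, a regulator of that family, had 1285 and 829 in Pdpn KO against 1350 and 897 in WT (-0.09 ± 0.27). Replicate 1 was well above replicate 2 in both genotypes. Iigp1, an effector GTPase gene, had 25.5 and 25.9 in Pdpn KO against 26.9 and 29.5 in WT (-0.13 ± 0.11), and Gbp3, a guanylate-binding protein gene, had a log2 fold change of 0.05 ± 0.14. The probe set shared by Gbp2 and Gbp2b read 227 and 157 in Pdpn KO against 166 and 181 in WT (0.13 ± 0.19). The probe set shared by Igtp and Irgm2 read 128 and 106 in Pdpn KO against 114 and 107 in WT (0.08 ± 0.13). The 2 Pdpn KO arrays lay on either side of the WT pair on both shared probe sets.

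Of the remaining genes, Rtp4, encoding a chaperone for some membrane receptors, had the smallest unadjusted p of the set. It read 113 and 117 in Pdpn KO against 103 and 95.9 in WT (0.21 ± 0.11). Trim30a, a ubiquitin ligase gene, read 85.0 and 81.7 in Pdpn KO against 77.6 and 71.1 in WT (0.17 ± 0.11). Both genes had separated pairs but differences of under 2 standard errors. Xaf1, a gene for a pro-apoptotic partner of XIAP, read 124 and 130 in Pdpn KO against 135 and 138 in WT (-0.11 ± 0.11), and Ifi35 had a log2 fold change of -0.02 ± 0.12. The probe set that the deposited description gives to Ifi44 read 285 and 151 in Pdpn KO against 189 and 158 in WT (0.26 ± 0.30), so its high value was on Pdpn KO replicate 1 alone.

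**Figure D2:**
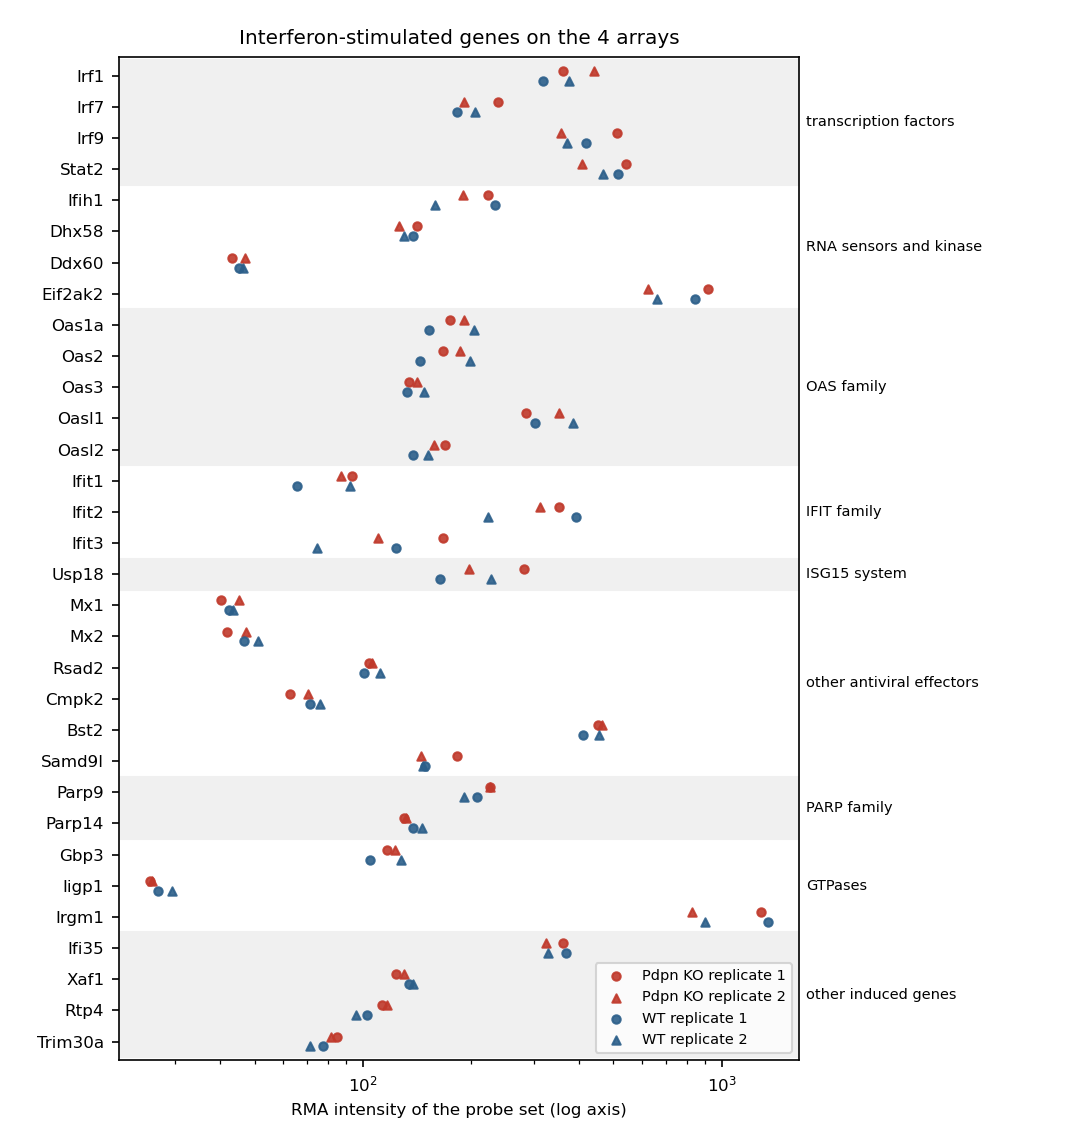
Intensity of the probe set of each of the 32 genes on the 4 arrays, on a log axis, with red for Pdpn KO, blue for WT, circles for replicate 1 and triangles for replicate 2, and shaded bands for the roles. Red and blue marks are mixed in most rows, while in Irgm1, Eif2ak2 and Ifit3 each circle lies well to the right of the triangle of the same colour.

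The level of the set as a whole differed little between the arrays. Relative to the mean of the WT arrays, the median of the 32 genes was 0.07 log2 on Pdpn KO replicate 1 and 0.02 on Pdpn KO replicate 2, against -0.03 and 0.03 on WT replicates 1 and 2. Without Pdpn KO replicate 2, the array whose sex-linked genes differ from the rest, the median log2 fold change was 0.07 (range -0.26 to 0.79). In that fit limma called 50 genes in all at an adjusted p under 0.05 and 0 of the 32, with 2 of the 32 at an unadjusted p under 0.05, Ifit3 and Usp18, against 3.65% of all genes in that fit. The smallest adjusted p, that of Ifit3, was 0.274.

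For 21 of the 32 genes (65.6%) the mean difference between replicate numbers exceeded that between genotypes, against 68.0% of all genes. The replicate differences are given as a description with no test, since nothing in the labels ties same-numbered arrays to a shared litter, batch or day. Replicate 2 lay on the same side of replicate 1 in both genotypes for 27 of the 32 genes (84.4%), lower in 12 and higher in 15, against 73.7% of all genes. It was lower by more than 0.3 log2, a bound chosen after the values were seen, in both genotypes for 3 of 32 genes (9.38%), against 3.45% of all genes. Replicate 2 was higher by that much in both genotypes for 0 of 32, against 2.53% of all genes, but Oasl1 lay at the bound, so the contrast between these counts depends on where it was set. The 3 genes were Ifit3 (replicate 2 minus replicate 1 of -0.59 in Pdpn KO and -0.73 in WT), Irgm1 (-0.63 and -0.59) and Eif2ak2 (-0.56 and -0.35). All 3 had a response element match, and so did 10 other measured genes that did not vary in this way.

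Most of the 32 genes did not share the order of these 3. Replicate 2 was lower in both genotypes in 12, higher in both in 15 and of opposite signs in 5. Oasl1, the gene at the bound, ran the other way, with replicate 2 above replicate 1 by 0.30 in Pdpn KO and 0.35 in WT. Irf1 did likewise, by 0.28 in Pdpn KO and 0.24 in WT. Usp18 took opposite signs, -0.51 in Pdpn KO and 0.47 in WT, and so did Ifit1, at -0.10 in Pdpn KO and 0.49 in WT. The clustered genes Ifit1 and Ifit3 thus differed between the WT arrays in opposite directions, and the capitals in their promoters spell the same pair of sequences. Across the 32 genes the replicate difference in Pdpn KO and that in WT had a Pearson correlation of 0.56, beside 0.58 across all genes, and the points share the same 4 arrays.

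**Figure D3:**
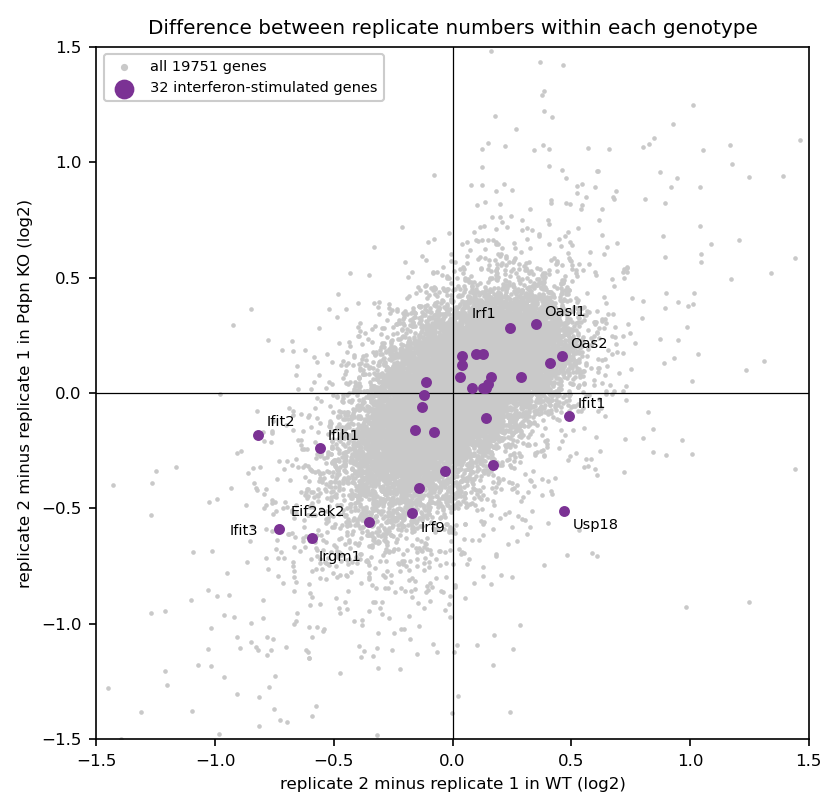
Log2 difference between replicate 2 and replicate 1 in Pdpn KO (vertical) and in WT (horizontal), for all 19751 genes in grey and the 32 interferon-stimulated genes in purple, with 26 genes outside the axes. Ifit3, Irgm1 and Eif2ak2 lie low on both axes, Oasl1 and Irf1 lie high on both, and Usp18 lies low in Pdpn KO and high in WT.

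Cell type markers were read beside the replicate pattern. The fibroblast markers moved with the replicate number too, and upward. Replicate 2 was above replicate 1 in both genotypes for 11 of the 14, against 8166 of all 19751 genes. It was above by more than 0.3 log2 in both for 6 of the 14 (42.9%), against 2.53% of all genes. The 6 were the collagen genes Col1a1, Col1a2 and Col3a1, the growth factor receptor gene Pdgfrb, and the matrix genes Lum and Postn. The median difference of the 14 was 0.48 in Pdpn KO and 0.39 in WT, beside 0.01 and 0.06 for the 32 interferon-stimulated genes. Of 18 macrophage and blood cell genes measured, replicate 2 was above replicate 1 in both genotypes for 11. By more than 0.3 log2 in both genotypes, 1 (5.56%, against 3.45% of all genes) was lower and 0 were higher. The lower gene was Cd68, a lysosomal glycoprotein gene of macrophages that other cells also express. It read 672 and 394 in Pdpn KO against 600 and 377 in WT. The summed intensity of the 18 genes, Cd68 included, was 2900 and 2783 in Pdpn KO, against 2853 and 2842 in WT. Of 15 endothelial markers, replicate 2 was above replicate 1 in both genotypes for 9. By more than 0.3 log2 in both, 3 (20.0%, against 2.53% of all genes) were higher and 1 (6.67%, against 3.45%) was lower. Of 15 plasmacytoid dendritic, T and NK cell markers, 12 were higher in both genotypes. By more than 0.3 log2 in both, 1 of these 15 (6.67%) was higher and 0 were lower. The part of cell composition or of the fibroblast genes in the pattern of Ifit3, Irgm1 and Eif2ak2 was not tested, and in bulk samples fewer cells of a type and less RNA per cell cannot be told apart.

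The remaining genes of the pathway were read in the same fit, and 0 genes of any of these lists were called by limma, with 3 at an unadjusted p under 0.05, all among the other induced genes described last. The interferon ligand genes had 14 of 19 listed genes measured and a median log2 fold change of -0.09 (range -0.16 to 0.11), with both Pdpn KO values below both WT values for 4 of 14 (28.6%, against 9.74% of all genes) and above for 0 (against 14.6%). Ifna2 had 141 and 162 in Pdpn KO against 172 and 166 in WT (-0.16 ± 0.12), and Ifna11 and Ifna12 had log2 fold changes of -0.16 ± 0.12 and -0.14 ± 0.11. Ifnb1, the main interferon gene of infected fibroblasts, had 60.0 and 76.7 in Pdpn KO against 63.5 and 79.3 in WT (-0.06 ± 0.17). Its pairs overlapped almost fully. Many alpha interferon genes are near-identical, so probes of single members may read others.

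All 6 receptor genes listed were measured, with a median of -0.01. Ifnar1, a chain of the type I receptor, had 1855 and 1791 in Pdpn KO against 1800 and 1800 in WT (0.02 ± 0.11). Ifnar2, its signalling partner, had 2318 and 2202 in Pdpn KO against 1999 and 2189 in WT (0.11 ± 0.12). For the interferon gamma receptor, Ifngr1 and Ifngr2 had log2 fold changes of 0.09 ± 0.12 and -0.04 ± 0.11. These 4 receptor chains differed by less than their standard errors. The JAK-STAT transducers, 8 of 10 measured, had a median of 0.04 (range -0.09 to 0.14). Jak1 and Tyk2, the kinases on the type I receptor, had 0.06 ± 0.11 and 0.06 ± 0.19, and Stat3, a transducer shared with many cytokines, had 2908 and 2859 in Pdpn KO against 2434 and 2807 in WT (0.14 ± 0.12).

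The 15 inhibitors of the pathway had a median of 0.07 (range -0.06 to 0.21). The highest was Rnf125, a ubiquitin ligase gene that acts on RIG-I, with 297 and 289 in Pdpn KO against 242 and 263 in WT (0.21 ± 0.11). The nucleic acid sensing genes upstream of interferon, 24 of 28 measured, had a median of 0.09 (range -0.11 to 0.34), and 9 genes (37.5%, against 14.6% of all genes) had both Pdpn KO values above the WT pair, 1 (4.17%, against 9.74%) both below. Myd88, the adaptor of most Toll-like receptors, had 1572 and 1603 in Pdpn KO against 1299 and 1371 in WT (0.25 ± 0.11). Ddx58, encoding the RNA sensor RIG-I, had 1189 and 1038 in Pdpn KO against 851 and 988 in WT (0.28 ± 0.13). The list also holds Tlr4, the receptor gene for endotoxin rather than nucleic acid, which set the top of the range. Tlr4 had 498 and 334 in Pdpn KO against 347 and 300 in WT (0.34 ± 0.20). For Myd88 and Ddx58 the pairs were separated, and for Tlr4 they overlapped, with values between 0.05 and 0.63 when 1 array at a time was left out.

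A longer list of other interferon-induced genes had 60 of 71 measured, a median of 0.03 (range -0.26 to 0.77) and 3 genes at an unadjusted p under 0.05, each with a limma adjusted p of 1.00. The 3 are to be read against the 2.01% of all genes. Of the 60 genes, 16 (26.7%, against 14.6% of all genes) had both Pdpn KO values above the WT pair and 2 (3.33%, against 9.74%) had both below. Lgals3bp, which encodes a secreted galectin-binding glycoprotein, had 2311 and 1701 in Pdpn KO against 1020 and 1326 in WT (0.77 ± 0.20, 95% interval 0.30 to 1.24). Leaving out 1 array at a time gave Lgals3bp values between 0.55 and 0.99, and limma called it in 1 of those 4 fits. Leaving out Pdpn KO replicate 2 gave an adjusted p of 0.0205, leaving out WT replicate 2 gave 0.0818, and the adjusted p was 0.5 or more in the remaining fits. Apobec3, a cytidine deaminase gene, had 523 and 519 in Pdpn KO against 428 and 425 in WT (0.29 ± 0.11). The dimmer probe set of Apobec3 read 281 and 292 in Pdpn KO against 262 and 329 in WT (-0.03 ± 0.14), and the mean of both gave 0.13. Dtx3l, encoding the ubiquitin ligase partner of Parp9, had 242 and 258 in Pdpn KO against 207 and 205 in WT (0.28 ± 0.11), and the deposited description of its probe set also names Parp9.

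**Figure D4:**
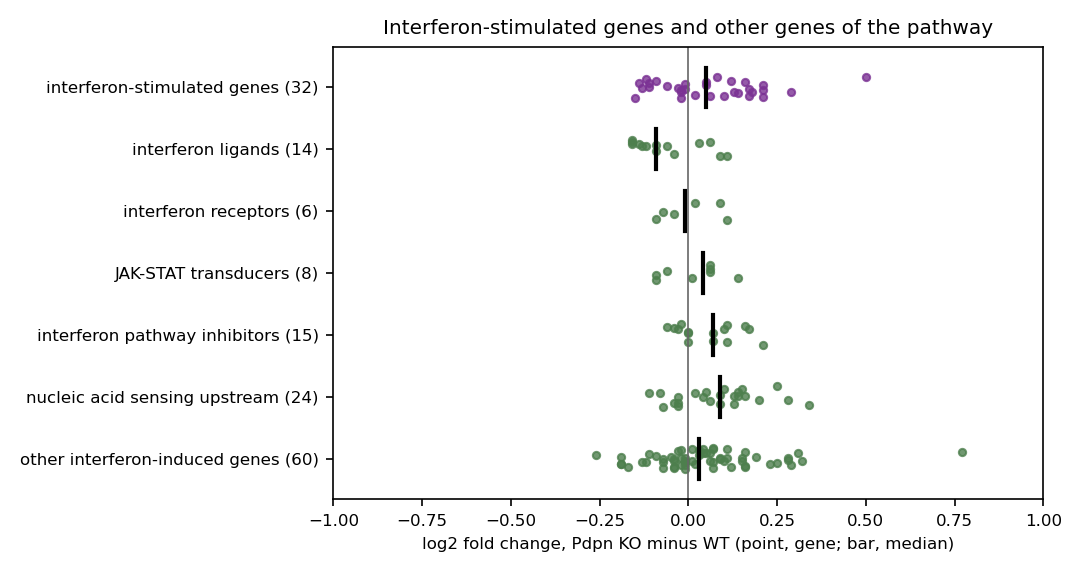
Log2 fold change, Pdpn KO minus WT, of the 32 interferon-stimulated genes (purple) and of the genes of 6 other interferon pathway lists (green), with the number measured in brackets and a black bar at each median. The medians lie between -0.09 for the ligands and 0.09 for the sensing genes, Ifit3 stands at 0.50 among the interferon-stimulated genes, and Lgals3bp stands at 0.77 among the other induced genes. With 1 array left out, the ligand median ran from -0.16 to 0.05 and that of the sensing genes from -0.01 to 0.13.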

How the data were processed

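The deposited intensities of 24679 probe sets per array are on a linear scale. The submitters' processing notes name RMA as the method, and the sources used here give neither its version nor its settings. RMA corrects background and equalises the arrays' distributions, so a shift of most genes would not be seen and fold changes of dim genes are understated. Of the probe sets, 21354 had 1 symbol in the platform annotation, 1275 had several and 2050 were not listed. Log2 was taken with no pseudocount. The brightest probe set stood for each of 19751 genes, and Pdpn KO was compared with WT by limma 3.58.1 (lmFit and eBayes, two-sided) in R 4.3.3, with Benjamini-Hochberg adjustment over all genes. Shared or unlisted probe sets were read from the same model over all probe sets. The model was tested on simulated data with independent arrays. There it called 47.6% of genes changed 2-fold at a limma adjusted p under 0.05. The simulation changed 200 genes, by 2- to 16-fold, and many changed genes make the Benjamini-Hochberg cutoff less strict. Here 2 genes were called and same-numbered arrays deviated together, so that share does not carry over to these arrays. Values per array are given for the 3 genes with the smallest p in each direction, the 3 brightest, representatives of each role and genes whose arrays are described; lists were summarised by counts and medians. The members and lists were chosen with earlier results of these data known. In all, 13 alternative settings were run. The number of arrays limits the precision.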

Additional observations from a re-analysis of the deposited data

How the results depend on the processing

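No interferon-stimulated gene was called in any of the 13 alternative settings or when each probe set was tested on its own, an alternative chosen after the data were seen, and the smallest adjusted p of any of them was 0.131. Of 383 values of the 32 genes under the alternatives, 34 took the other sign; 19 genes changed sign in at least 1 fit with an array left out and 13 did not. The number of genes called in all, 2 as reported, was 34 with the replicate number as a block, 9 with a robust prior, 1 on the brighter 50% of genes, 0 with a pseudocount of 50, where Pdpn was at -3.98, and between 5 and 100 with an array left out. The block was fitted because the groups share replicate numbers: same-numbered arrays deviated together (correlation 0.58), but the labels do not say what they share, and with the replicate block 0 of the 32 genes were called. At an unadjusted p under 0.05 the block gave 3 of the 32, Ifit3, Irf1 and Rtp4, against 8.49% of all genes. Of the 32 genes, 8 had pairs that did not overlap, against 24.4% of all genes. The brighter 50% of genes kept 9 of the 32, with 0 not overlapping (against 28.5%), and the brighter 75% kept 22, with 4 (18.2%, against 24.4%). Leaving out an array gave 18 to 22 of 32, against 60.7% to 63.8% of all genes, by construction, since 1 array then stands for a group. For the 9 genes of the brighter 50%, Pdpn KO replicates 1 and 2 had medians of 0.14 and -0.10 relative to the WT mean. Over all 32 genes that of Pdpn KO replicate 2 was 0.02, and between -0.06 and 0.06 with an array left out.

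Repeating quantile normalisation gave Dhx58 0.01, Eif2ak2 -0.02, Mx1 0.01, Rsad2 0.00, Ifnar1 0.00, Ifnl2 -0.01 and Ptpn11 -0.03, and centring the arrays gave Ptpn11 -0.02, all near 0 before. With each array left out in turn, log2 fold changes that took both signs ran as follows. The list medians turned too, from -0.16 to 0.05 for the ligands, -0.02 to 0.04 for the receptors, -0.07 to 0.10 for the JAK-STAT transducers and -0.01 to 0.13 for the sensing genes. For regulators, Irf7 ran from -0.01 to 0.29, Irf9 from -0.14 to 0.38 and Stat2 from -0.27 to 0.14. For sensors, Ifih1 ran from -0.18 to 0.38, Dhx58 from -0.09 to 0.08, Ddx60 from -0.09 to 0.03 and Eif2ak2 from -0.26 to 0.30. Oas1a ran from -0.16 to 0.26, Oas2 from -0.17 to 0.29, Oas3 from -0.10 to 0.06 and Oasl1 from -0.28 to 0.07. Ifit1 ran from -0.03 to 0.46, Ifit2 from -0.24 to 0.57, Mx1 from -0.09 to 0.08, Rsad2 from -0.09 to 0.05 and Samd9l from -0.03 to 0.30. Gbp3 ran from -0.10 to 0.19, Irgm1 from -0.41 to 0.22 and Ifi35 from -0.10 to 0.06. Of the pathway genes, Ifna5 ran from -0.25 to 0.01, Ifnb1 from -0.24 to 0.11, Ifnl2 from -0.15 to 0.20, Ifnar1 from -0.01 to 0.04, Ifngr2 from -0.10 to 0.02, Il10rb from -0.25 to 0.06, Tyk2 from -0.17 to 0.30, Irf8 from -0.25 to 0.06, Ep300 from -0.25 to 0.07, Ptpn11 from -0.01 to 0.02 and Rela from -0.04 to 0.12. With 2 arrays per genotype and no detection calls, differences near these ranges could not be resolved.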
